A study of Homo sapiens with 12 samples.

Results

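The genes described here carry the DNA damage checkpoint and the repair of broken DNA by homologous recombination, with the Fanconi anemia genes, mismatch repair genes, and PARP1 beside them. They were chosen by name, as 45 symbols among the 25369 gene symbols counted in each sample, and each symbol was found once. By role, 13 belong to the checkpoint, 19 to recombination, 10 to the Fanconi pathway, and 2 to mismatch repair, and PARP1 senses strand breaks. RNA-seq was run on 12 samples of U2OS Tet-On cells, a human osteosarcoma line in which doxycycline turns on a gene carried on a pTRE vector. The 4 lines compared were each grown as 3 biological replicates. The WT line carried HA-tagged wild-type E2F1, a transcription factor of the cell cycle. The R109K line carried E2F1 with lysine in place of the arginine that PRMT1 methylates. The KK line carried E2F1 with lysine at both arginines that PRMT5 methylates (the R111/113K form). The pTRE line carried the vector alone and was the control. All lines, pTRE included, were kept in G418 and hygromycin B and received doxycycline at 1 μg/ml for 24 hours, so that the drugs are shared and no sample without doxycycline is part of the comparison. Each E2F1 form was read in a single stable line, and whether a line is 1 clone is not stated in the sources used here. A difference between lines can therefore not be told apart from a difference between the E2F1 forms, and the p-values measure the spread between cultures of a line.

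When DNA breaks or a replication fork stalls, the kinases ATM and ATR start a checkpoint. The RAD9A-RAD1-HUS1 clamp, loaded with the help of RAD17, and TOPBP1 activate ATR with its partner ATRIP, and the kinases CHEK1 and CHEK2 pass the signal on to CDC25A and WEE1, which set cyclin-dependent kinase activity. In homologous recombination, the MRE11A-RAD50-NBN complex and RBBP8 start to cut back the broken ends, EXO1 and BLM extend the cut, and BRCA1, BARD1, PALB2, and BRCA2 prepare the search for an intact copy, helped by RAD51C, RAD51D, XRCC2, XRCC3, RAD51AP1, and the RAD54 motors. The Fanconi core complex, which holds FANCA, FANCB, FANCC, FANCE, FANCF, FANCG, FANCL, and FANCM, attaches ubiquitin to FANCD2 and FANCI at crosslinked DNA. MSH6 and PMS2 belong to the protein pairs that recognize and process mismatched bases. Many genes of replication and repair are known E2F targets, and E2F proteins bind short words, a run of T followed by G and C, near the start of transcription.

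At an adjusted p under 0.01 in edgeR, 7 of these genes differed from pTRE in all 3 E2F1 lines, each in a single direction, 5 of them higher (CDC25A, RAD51D, RBBP8, EXO1, and FANCA) and 2 lower (FANCE and FANCF). Of all 16625 genes tested, 13.9% differed in a single direction in all 3 lines, 8.45% higher and 5.47% lower, and the 3 comparisons share their pTRE samples. Their promoters are printed here because their transcripts moved in the same direction in every E2F1 line. Each sequence runs 5′ to 3′ along the strand of the gene, from 250 bases before to 50 bases after the start site in RefSeq on GRCh38.p14, and capitals mark matches to an E2F word on either strand. The words searched were TTTCCCGC, TTTGGCGC, TTTCGCGC, and TTTGCCGC, and the 7-base words that remain when the first T of each is left out, so that every 8-base match also holds a 7-base one.
CDC25A (higher in the E2F1 lines, chr3:48188368-48188667, minus strand): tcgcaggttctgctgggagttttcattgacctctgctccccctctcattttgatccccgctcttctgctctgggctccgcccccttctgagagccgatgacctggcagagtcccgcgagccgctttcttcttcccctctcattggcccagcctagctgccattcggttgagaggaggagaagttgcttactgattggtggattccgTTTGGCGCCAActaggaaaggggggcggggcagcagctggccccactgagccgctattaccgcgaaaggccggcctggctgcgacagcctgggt
RAD51D (higher in the E2F1 lines, chr17:35119709-35120008, minus strand): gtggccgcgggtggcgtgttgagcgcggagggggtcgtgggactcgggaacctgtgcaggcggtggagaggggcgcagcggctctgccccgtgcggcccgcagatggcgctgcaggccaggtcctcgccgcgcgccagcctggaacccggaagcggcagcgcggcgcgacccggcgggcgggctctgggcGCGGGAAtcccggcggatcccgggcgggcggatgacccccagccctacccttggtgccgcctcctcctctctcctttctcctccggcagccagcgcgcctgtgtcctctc
RBBP8 (higher in the E2F1 lines, chr18:22933078-22933377, plus strand): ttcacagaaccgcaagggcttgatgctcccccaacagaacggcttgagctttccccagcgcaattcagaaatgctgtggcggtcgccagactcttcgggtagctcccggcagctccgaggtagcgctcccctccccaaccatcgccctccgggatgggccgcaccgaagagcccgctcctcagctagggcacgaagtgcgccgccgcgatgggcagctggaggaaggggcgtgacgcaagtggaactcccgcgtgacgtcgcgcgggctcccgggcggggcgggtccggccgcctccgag
EXO1 (higher in the E2F1 lines, chr1:241847954-241848253, plus strand): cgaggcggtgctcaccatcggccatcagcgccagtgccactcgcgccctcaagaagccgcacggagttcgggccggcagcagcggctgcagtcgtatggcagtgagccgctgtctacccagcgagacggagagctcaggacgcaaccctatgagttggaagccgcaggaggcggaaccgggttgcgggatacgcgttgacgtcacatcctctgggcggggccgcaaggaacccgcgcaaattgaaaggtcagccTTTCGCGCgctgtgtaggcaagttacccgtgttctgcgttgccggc
FANCA (higher in the E2F1 lines, chr16:89816598-89816897, minus strand): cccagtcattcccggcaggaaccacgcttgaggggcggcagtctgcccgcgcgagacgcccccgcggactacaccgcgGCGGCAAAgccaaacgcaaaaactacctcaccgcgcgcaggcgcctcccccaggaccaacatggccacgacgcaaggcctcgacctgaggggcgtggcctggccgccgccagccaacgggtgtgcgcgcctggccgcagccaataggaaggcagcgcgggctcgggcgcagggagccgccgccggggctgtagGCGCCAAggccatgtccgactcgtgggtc
FANCE (lower in the E2F1 lines, chr6:35452088-35452387, plus strand): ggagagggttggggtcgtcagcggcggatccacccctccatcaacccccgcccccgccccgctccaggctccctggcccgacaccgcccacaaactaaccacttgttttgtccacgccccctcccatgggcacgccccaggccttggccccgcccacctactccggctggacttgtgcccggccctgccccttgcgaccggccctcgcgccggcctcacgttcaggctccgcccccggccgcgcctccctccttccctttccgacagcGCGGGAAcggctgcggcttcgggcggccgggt
FANCF (lower in the E2F1 lines, chr11:22625774-22626073, minus strand): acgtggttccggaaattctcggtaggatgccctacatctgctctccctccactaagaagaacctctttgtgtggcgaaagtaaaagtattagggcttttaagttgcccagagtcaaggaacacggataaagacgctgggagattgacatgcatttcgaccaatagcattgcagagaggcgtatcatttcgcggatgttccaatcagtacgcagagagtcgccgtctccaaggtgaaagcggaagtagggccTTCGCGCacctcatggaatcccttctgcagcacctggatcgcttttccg

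In CDC25A, a TTTGGCGC word begins 44 bases before the start and overlaps a TTGGCGC word on the other strand. EXO1 holds TTTCGCGC beginning at base 5 of the transcript. FANCA holds TTTGCCGC on the other strand, 172 bases before the start, and a TTGGCGC word on the other strand at base 22 of the transcript. RAD51D has a TTCCCGC word on the other strand at 60 bases before the start, whereas the RBBP8 window has none of these words. Both genes that fell hold a 7-base word inside the transcript, FANCE at base 19 and FANCF at base 2. A match is a run of letters and not a measured binding site.

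Of the 45 genes, 39 had an entry in the RefSeq promoter table, and WEE1, HUS1, RAD54B, NBN, WRN, and FANCI did not. A single start per gene was searched, so a gene counted without a word, such as BRCA1, may hold one at another start. An 8-base E2F word lay in 9 of the 39 promoters (23.1%), compared with 3.33% of the 27305 promoters in the table. A 7-base word lay in 23 of 39 (59%), compared with 13.1% of all promoters. The 27305 promoters were not limited to genes expressed here or matched to the 39 in base content. How much of these gaps follows from that was not tested. Among promoters of genes past the test in at least 1 E2F1 line, an 8-base word lay in 3 of 7 higher genes and in 0 of 3 lower genes. Among the genes past the test in no line, 6 of 29 held one, namely TOPBP1, XRCC2, FANCD2, FANCC, MSH6, and PMS2. The 7-base words lay in 6 of 7 higher, 2 of 3 lower, and 15 of 29 other promoters, so that 15 of the 23 genes with a word were past the test in no line. The CCAAT box lay in 48.7% of the 39 promoters and in 35.7% of all promoters, and the CHR word TTTGAA, found in genes of late cell cycle phases, in 7.69% and 15.4%. All words were searched on both strands.

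**Figure D1:**
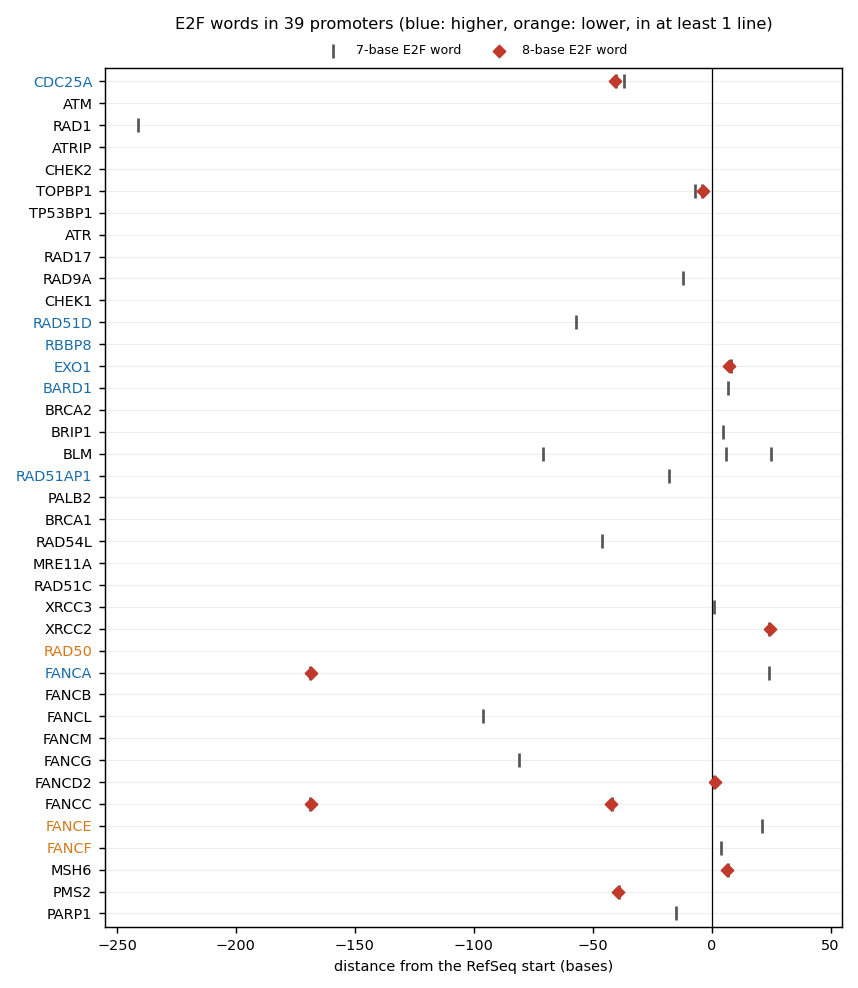
Position of E2F words in the 39 matched promoters, in bases from the RefSeq start (0), with ticks for 7-base words and diamonds for 8-base words. Names in blue were higher and names in orange lower than pTRE in at least 1 E2F1 line. Diamonds lie in 9 rows and ticks in 23, and 15 of the 23 rows with a tick belong to genes past the test in no line.

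Before the comparisons, the libraries were examined. Between 11500537 and 31040903 reads fell on genes in a library. WT replicate 2 stood apart, with 31.2% of its reads on genes and 58.7% outside them, compared with 23.6 to 29.6% outside genes in the other 11 samples. It had the highest level of all 12 samples for 18 of the 45 genes, among them ATM, BRCA2, FANCA, FANCM, and XRCC2. The values that it moves most are therefore given with and without it. The labels call the cells osteosarcoma and epithelial. In pTRE, COL1A1 was at 3557 ± 453 CPM (counts scaled to a common depth with TMM library sizes, mean ± SD, n = 3), KRT8 at 503 ± 64.6, and KRT18 at 288 ± 35.8, but the bone genes SP7 and BGLAP, COL1A2, and KRT19 were at or near 0 in all samples. SPARC was at 1613 ± 205 CPM in pTRE, VIM at 1554 ± 141, and RUNX2 at 16.99 ± 1.84. The epithelial markers EPCAM and CDH1 were low in pTRE, at 12.3 ± 2.12 and 1.38 ± 0.0619 CPM, and ALPL was at 1.18 ± 0.274. COL1A1 fell in each E2F1 line, with log2 fold changes of -2.65, -2.43, and -2.08 in WT, KK, and R109K. In WT, SPARC (-1.37, adjusted p = 1.2e-05, edgeR) and KRT8 (-1.08, 0.00019) fell as well, and were at -1.18 and -0.88 without WT replicate 2. RUNX2, VIM, ALPL, EPCAM, CDH1, and KRT18 had an adjusted p above 0.01 in WT by edgeR. Without WT replicate 2, RUNX2 was at -0.78 (adjusted p = 0.0013, edgeR). Log2 fold changes are given ± the standard error of the edgeR model. E2F1 itself, the gene placed on the vector, had 89.2, 82.9, and 101 CPM in the 3 pTRE samples. The WT samples had 2315, 1650.2, and 1469 CPM, the KK samples 1359.6, 1478, and 1112 CPM, and the R109K samples 1283, 1259.8, and 932 CPM. E2F1 was thus higher than pTRE in every sample of the 3 lines, by 4.31 ± 0.20 in log2 in WT, 3.85 ± 0.20 in KK, and 3.67 ± 0.20 in R109K. These reads come from the vector and the endogenous gene together. All R109K samples were below all WT samples, with a log2 difference of -0.65 ± 0.18 (adjusted p = 0.058 in edgeR).

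All 45 genes were expressed well enough to be tested, and the lowest count of any of them in any sample was 82 reads (FANCF). Levels between genes were compared per kilobase of the annotated main transcript, in pTRE. PARP1 (103 ± 3.76 CPM per kilobase, SD, n = 3) and MSH6 (84.8 ± 2.80) were the highest. RAD51AP1 (38.3 ± 3.59), FANCG (38.0 ± 2.33), and FANCI (36.8 ± 1.52) came next and did not differ beyond their spread. FANCF (4.21 ± 0.107), ATRIP (4.17 ± 0.244), and FANCB (3.02 ± 0.249) were near the low end. RAD51D was lowest at 1.68, with an annotated main transcript of 9966 bases in GRCh37. ATRIP and RAD51D share 26.7 and 9.47% of their exon bases with other genes. In each case a protein-coding gene on the same strand is among them, so these counts depend on how shared reads were assigned.

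A gene was past the test at an adjusted p under 0.01 in edgeR's quasi-likelihood test (Benjamini-Hochberg over 16625 genes), and regulated if it also changed more than 2-fold. In WT against pTRE, 10 of 45 genes (22.2%) were past the test, 7 higher and 3 lower. Of all genes tested, 26.2% were past it, 14.8% higher and 11.4% lower, so that the share among the checkpoint and repair genes was near that of the transcriptome. In KK, 7 were past it (5 higher and 2 lower, 15.6%), compared with 24.4% of all genes (13.8% higher and 10.7% lower). In R109K, 9 were past it (7 higher and 2 lower, 20%), compared with 17.3% of all genes (10% higher and 7.23% lower). The 3 comparisons share the same pTRE samples. The median log2 fold change of the 45 genes was 0.16 in WT, 0.00 in KK, and 0.16 in R109K, and that of all genes was 0.00, -0.01, and 0.00. Without WT replicate 2, 11 genes were past the test in WT, 6 higher and 5 lower, compared with 24.2% of all genes. The median was then 0.09 (all genes -0.03). In KK, 3 genes were past the test without KK replicate 1, 4 without pTRE replicate 1, and 10 without KK replicate 2. Of all genes, 18.1, 18.5, and 21.9% were past it in these settings. In R109K, 3 were past it without R109K replicate 1 and 6 without pTRE replicate 1, compared with 10.8 and 12.4% of all genes. There were 4 without pTRE replicate 2, pTRE replicate 3, or R109K replicate 3 (11.8, 12.3, and 12.7% of all genes). DESeq2 called 13, 11, and 17 genes in WT, KK, and R109K, and 29, 25.6, and 20.5% of all genes it tested. A single gene, FANCA, was regulated more than 2-fold in WT, where 7.89% of all genes were regulated upward and 3.93% downward. CDC25A lay just inside that limit, at 0.998 in log2, and the count was 2 with RLE factors, with at least 10 counts in every sample, and with only the 6 samples compared, 1 to 3 with a replicate left out (3 without WT replicate 3, 1 without pTRE replicate 1, and 2 otherwise), and 0 by glmTreat, which tests against 2-fold itself. No gene of the 45 was regulated more than 2-fold in KK or R109K (0 in each by edgeR and by DESeq2), where 7.01 and 4.64% of all genes were regulated upward and 3.9 and 2.56% downward. At an unadjusted p under 0.05, 15, 19, and 23 genes passed in WT, KK, and R109K, and 49, 45.6, and 38.6% of all genes did. The replicates did not overlap with pTRE for 12 higher and 5 lower genes in WT (25.2 and 26.3% of all genes), 13 and 8 in KK (24.9 and 24.5%), and 19 and 10 in R109K (24.3 and 22.9%). Over the 3 lines, 12 of 45 genes were past the test at least once and 33 in no line, and 32% of all genes were past it at least once.

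**Figure D2:**
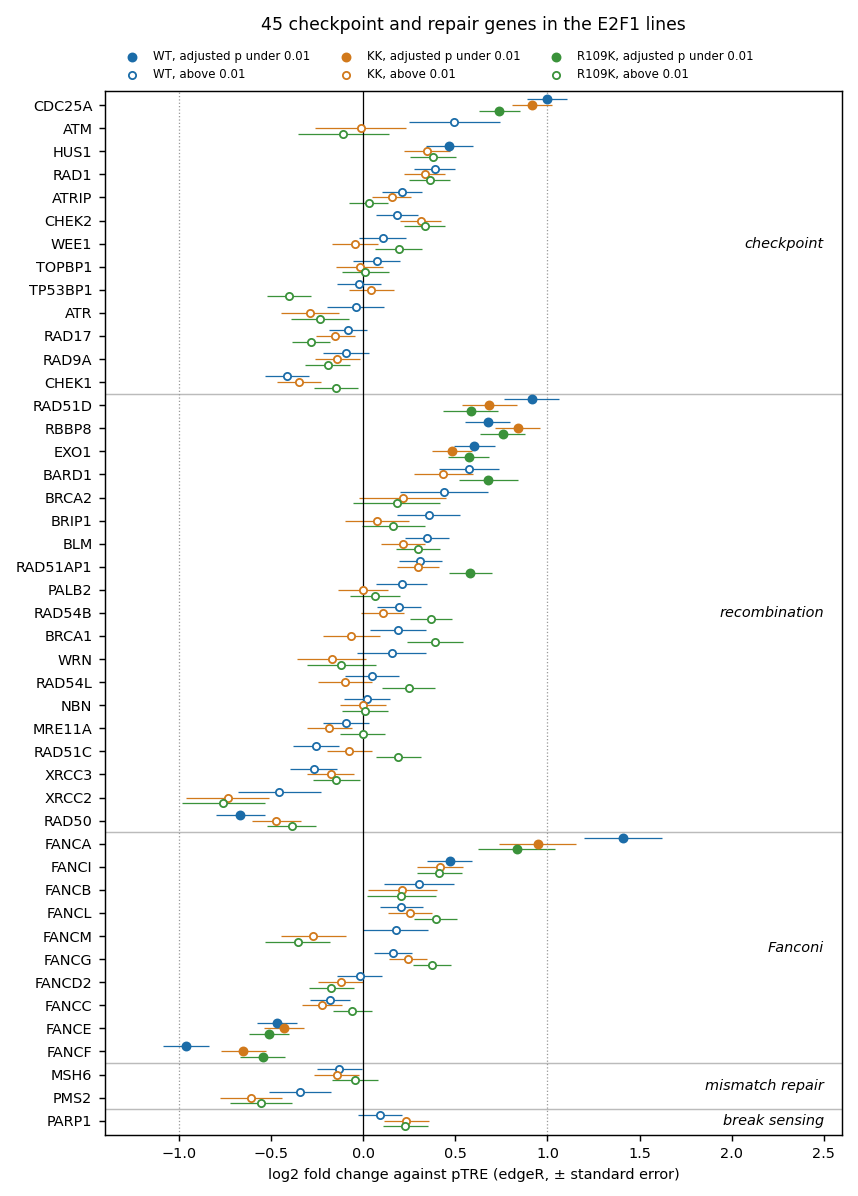
Log2 fold change of each of the 45 genes against pTRE in WT (blue), KK (orange), and R109K (green), with bars for the standard error of the edgeR model (3 samples per line) and filled points at an adjusted p under 0.01. Dotted lines mark a 2-fold change. FANCA in WT is the only filled point beyond them, at 1.41, and CDC25A, RAD51D, RBBP8, EXO1, FANCA, FANCE, and FANCF are filled in all 3 lines.

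Among the 13 checkpoint genes, 2 rose in WT and 1 in each of KK and R109K, and none fell in any line by edgeR. Those that rose were 15.4, 7.69, and 7.69% of the subgroup, compared with 14.8, 13.8, and 10% of all genes. Of all genes, 11.4, 10.7, and 7.23% fell. At an unadjusted p under 0.05, 4 passed in WT, 5 in KK, and 6 in R109K (49, 45.6, and 38.6% of all genes). CDC25A, the phosphatase that the checkpoint destroys to hold back cyclin-dependent kinases, rose in all 3 lines and had the smallest adjusted p of the 45 genes in each. It was at 53.2, 62.7, and 61.2 CPM in pTRE. It reached 132, 114, and 108 CPM in WT, 113, 109.4, and 112 in KK, and 97.5, 103, and 95.5 in R109K. All 9 induced samples lay above all pTRE samples. The log2 fold change was 1.00 ± 0.11 in WT (adjusted p = 5.3e-06, edgeR), 0.92 ± 0.11 in KK (1.2e-05), and 0.74 ± 0.11 in R109K (0.00014). HUS1, a subunit of the checkpoint clamp, was at 31.0, 38.7, and 31.0 CPM in pTRE and 45.9, 52.0, and 41.7 CPM in WT. It was at 46.8, 37.7, and 43.5 CPM in KK and 44.3, 44.7, and 42.0 CPM in R109K. Its WT samples lay above all pTRE samples, whereas its lowest KK sample was below the highest pTRE sample. The log2 fold change was 0.47 ± 0.13 in WT (adjusted p = 0.0086, edgeR), 0.35 in KK (0.043), and 0.38 in R109K (0.035). The WT call for HUS1 was lost, in the same edgeR test, without pTRE replicate 1 (adjusted p = 0.042), pTRE replicate 3 (0.041), WT replicate 1 (0.022), or WT replicate 2 (0.031). The calls for CDC25A held whichever replicate was left out.

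The other 11 checkpoint genes were past the test in no line. RAD1, another clamp subunit, had log2 fold changes of 0.39, 0.33, and 0.36 in WT, KK, and R109K (adjusted p = 0.012, 0.029, and 0.025, edgeR), and without WT replicate 2 it was past the test in WT, at 0.44 (0.0089). The third clamp subunit, RAD9A, was at -0.09, -0.14, and -0.19, and the loader RAD17 at -0.08, -0.15, and -0.28. CHEK1, the kinase downstream of ATR, was at -0.41, -0.35, and -0.15 (adjusted p = 0.012, 0.03, and 0.39, edgeR), and its WT samples, at 45.6, 35.4, and 43.8 CPM, lay below all pTRE samples, at 62.2, 53.1, and 51.5. Without WT replicate 2, the lowest of its samples, the WT value of CHEK1 was -0.32 (adjusted p = 0.044, edgeR). DESeq2 called CHEK1 lower and RAD1 higher in WT (adjusted p = 0.0043 and 0.0038). CHEK2, the kinase downstream of ATM, was at 0.18, 0.31, and 0.33. ATM, which responds to double-strand breaks, was at 112, 225, and 116 CPM in WT and 112, 117, and 91.9 CPM in pTRE, and the WT difference (0.49 ± 0.25 in log2, adjusted p = 0.12, edgeR) was 0.09 without WT replicate 2. ATR and its partner ATRIP were at -0.04, -0.29, and -0.23 and at 0.21, 0.15, and 0.03, TOPBP1, the activator of ATR, at 0.07, -0.02, and 0.01, and the kinase WEE1 at 0.11, -0.04, and 0.19. TP53BP1, which binds chromatin at breaks and limits end resection, was at -0.02, 0.05, and -0.40 (adjusted p = 0.9, 0.8, and 0.02, edgeR). DESeq2, and edgeR with only the 6 samples compared, called TP53BP1 lower in R109K. RAD1 was called higher there by DESeq2.

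Among the 19 recombination genes, 3 rose and 1 fell in WT, 3 rose in KK, and 5 rose in R109K. Those that rose were 15.8, 15.8, and 26.3% of the subgroup in WT, KK, and R109K, compared with 14.8, 13.8, and 10% of all genes. Of all genes, 11.4, 10.7, and 7.23% fell. RAD51D, which acts after end resection, rose in all 3 lines. It was at 15.8, 17.4, and 17.1 CPM in pTRE and 26.7, 40.5, and 28.3 CPM in WT. It was at 29.2, 25.4, and 26.2 CPM in KK and 23.8, 23.7, and 28.0 CPM in R109K. No induced sample overlapped the pTRE samples, and WT replicate 2 was the highest of all. The log2 fold changes were 0.91 ± 0.15 in WT (adjusted p = 0.00021, edgeR), 0.68 ± 0.15 in KK (0.0021), and 0.58 ± 0.15 in R109K (0.0083), and that of WT was 0.71 (0.0003) without WT replicate 2. In edgeR, its R109K call was lost whichever of the 6 samples was left out (adjusted p = 0.016 to 0.043), and its KK call without pTRE replicate 1 (0.013) or KK replicate 1 (0.011).

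RBBP8, also known as CtIP, which starts the resection of broken ends together with the MRE11A complex, was at 124, 103, and 91.0 CPM in pTRE. It was at 186, 156, and 165 CPM in WT, 190.0, 194, and 184 in KK, and 188, 173, and 176 in R109K. All induced samples were above all pTRE samples. RBBP8 rose by 0.68 ± 0.12 in log2 in WT (adjusted p = 0.0005, edgeR), 0.84 ± 0.12 in KK (8.1e-05), and 0.76 ± 0.12 in R109K (0.0003), and was past the test whichever replicate was left out. EXO1, the exonuclease that lengthens the resected end, was at 72.8, 72.5, and 62.6 CPM in pTRE and 108.5, 111, and 96.2 CPM in WT. In KK, EXO1 was at 104, 90.1, and 96.3 CPM, and in R109K at 108.8, 98.9, and 101 CPM. Again the groups did not overlap with pTRE. The log2 fold changes were 0.60 ± 0.11, 0.48 ± 0.11, and 0.57 ± 0.11 in WT, KK, and R109K (adjusted p = 0.0005, 0.0028, and 0.0011, edgeR). The KK call was lost without pTRE replicate 3 (0.017), KK replicate 1 (0.017), or KK replicate 3 (0.011).

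BARD1, the partner that BRCA1 needs as a ubiquitin ligase, was at 46.9, 43.2, and 36.2 CPM in pTRE and 68.7, 59.0, and 59.9 in WT. It was at 67.6, 43.98, and 59.0 CPM in KK and 78.9, 56.6, and 66.7 CPM in R109K. BARD1 rose in R109K, by 0.68 ± 0.16 in log2 (adjusted p = 0.0054, edgeR), a call lost when any pTRE replicate (0.0102 to 0.034), R109K replicate 1 (0.039), or R109K replicate 3 (0.016) was left out. In WT, its log2 fold change was 0.57 (0.011), and in KK, 0.44 (0.047). The WT change of BARD1 lay close to the threshold and passed it by DESeq2 (0.0042) and in edgeR with no filter on low counts (0.0093), with at least 10 counts in every sample (0.0089), and with only the 6 samples compared (0.0062). RAD51AP1, which helps strands to pair, was past the test in R109K, at 0.58 ± 0.12 in log2 (adjusted p = 0.0015, edgeR), compared with 0.31 (0.044) in WT and 0.30 (0.056) in KK. This R109K call was lost without pTRE replicate 3 (0.0103) or R109K replicate 1 (0.011). R109K and WT were not past the test against each other for BARD1 (adjusted p = 0.72, edgeR) or RAD51AP1 (0.19), and neither were R109K and KK (0.61 and 0.31).

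RAD50, the ATPase of the MRE11A-RAD50-NBN complex, was the recombination gene that fell by edgeR in the main fit, in WT. Its pTRE samples were at 163, 135, and 120.2 CPM and its WT samples at 83.0, 88.2, and 92.0 CPM. KK samples were at 85.2, 115, and 102 CPM and R109K samples at 100.2, 105, and 114 CPM. All induced samples were below all pTRE samples. The log2 fold change was -0.67 ± 0.13 in WT (adjusted p = 0.0011, edgeR), and -0.47 (0.012) and -0.39 (0.04) in KK and R109K. In the GENCODE annotation of GRCh37, 76.9% of the exon bases of RAD50 are shared with other genes, one of them on the same strand, so its count depends on how shared reads were assigned. Its partners MRE11A and NBN had log2 fold changes of -0.09, -0.18, and -0.00 and of 0.02, 0.00, and 0.01 in WT, KK, and R109K, and neither was past the test.

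XRCC2, which works in a complex with RAD51D, had samples at 40.4, 40.3, and 34.7 CPM in pTRE and 19.8, 41.4, and 24.0 CPM in WT. The KK samples were at 21.0, 19.9, and 28.4 CPM and the R109K samples at 23.4, 18.3, and 26.5 CPM. WT replicate 2 was the only induced sample within the pTRE range or above it. The log2 fold changes of XRCC2 were -0.45, -0.73, and -0.76 (adjusted p = 0.12, 0.019, and 0.02, edgeR). Without WT replicate 2, that of WT was -0.81 (0.0019, edgeR), which is past the test. DESeq2 called XRCC2 lower in KK and R109K. So did edgeR with no filter on low counts and with only the 6 samples compared. The remaining recombination genes were past the test in no line. BRCA1 was at 0.19, -0.06, and 0.39 in log2 in WT, KK, and R109K, BRCA2 at 0.44, 0.21, and 0.18, and PALB2, which joins them, at 0.21, 0.00, and 0.06. The helicases BRIP1, BLM, and WRN were at 0.36, 0.07, and 0.16, at 0.35, 0.22, and 0.30, and at 0.15, -0.17, and -0.12. RAD51C and XRCC3, which form a complex with each other, were at -0.26, -0.07, and 0.19 and at -0.27, -0.18, and -0.15, and the motor proteins RAD54L and RAD54B at 0.05, -0.10, and 0.25 and at 0.19, 0.11, and 0.37. Without WT replicate 2, the WT values were 0.21 for BRCA2, 0.03 for BRCA1, and -0.19 for RAD54L. Those of PALB2, BRIP1, BLM, and WRN were then 0.06, 0.21, 0.24, and -0.003. RAD54L and WRN thus turned their sign. XRCC3 and RAD54B share 76.7 and 66% of their exon bases with other genes.

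**Figure D3:**
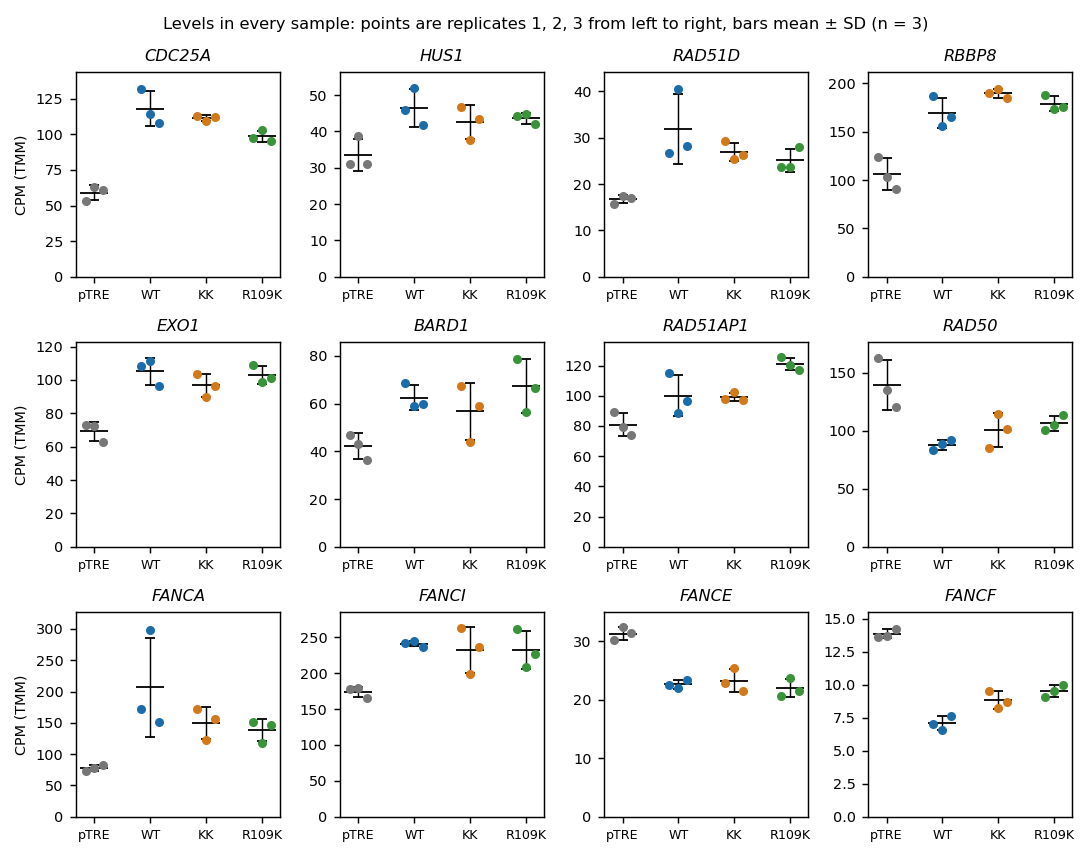
CPM in every sample for the 12 genes past the test in at least 1 E2F1 line, with a panel for each gene, points for replicates 1, 2, and 3 from left to right, and bars for the mean ± SD of the 3 samples of a line. Each axis starts at 0. All induced samples of CDC25A, RAD51D, RBBP8, EXO1, FANCA, and FANCI lie above their pTRE samples, and those of RAD50, FANCE, and FANCF lie below.

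The 10 Fanconi genes moved in both directions: 2 rose and 2 fell in WT, and 1 rose and 2 fell in each of KK and R109K. Genes past the test were 40, 30, and 30% of the subgroup in WT, KK, and R109K, compared with 26.2, 24.4, and 17.3% of all genes. FANCA, the scaffold subunit of the core complex, had the largest change of the 45 genes in each line. Its pTRE samples were at 72.8, 78.4, and 82.3 CPM and its WT samples at 172, 297, and 151 CPM. KK samples were at 172, 122, and 156 CPM, and R109K samples at 152, 118, and 146 CPM. All induced samples were above all pTRE samples, and WT replicate 2 was the highest. FANCA rose by 1.41 ± 0.21 in log2 in WT (adjusted p = 9.5e-05, edgeR), which was 1.05 (3.1e-05) without WT replicate 2, still more than 2-fold. In KK it rose by 0.95 ± 0.21 (0.0023) and in R109K by 0.83 ± 0.21 (0.0074). The KK call was lost without pTRE replicate 1 (0.015), pTRE replicate 2 (0.011), or KK replicate 1 (0.011), and the R109K call when any sample but R109K replicate 2 was left out (0.023 to 0.037). FANCA shares 19.6% of its exon bases with ZNF276 on the opposite strand.

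FANCF and FANCE, the subunits that link parts of the core complex with each other and with FANCD2, fell in all 3 lines. FANCF was at 13.6, 13.7, and 14.3 CPM in pTRE and 7.05, 6.58, and 7.62 CPM in WT. It was at 9.55, 8.21, and 8.68 CPM in KK and 9.04, 9.52, and 9.95 CPM in R109K. WT was the lowest of the 4 lines, without overlap with any other. The log2 fold changes of FANCF were -0.96 ± 0.13 in WT (adjusted p = 2.7e-05, edgeR), -0.65 ± 0.12 in KK (0.0007), and -0.54 ± 0.12 in R109K (0.0035). FANCE was at 30.2, 32.4, and 31.3 CPM in pTRE and 22.6, 21.9, and 23.3 CPM in WT. It was at 22.8, 25.4, and 21.5 CPM in KK and 20.6, 23.7, and 21.5 CPM in R109K, so that all induced samples were below all pTRE samples. The log2 fold changes of FANCE in WT, KK, and R109K were -0.47 ± 0.11, -0.43 ± 0.11, and -0.51 ± 0.11 (adjusted p = 0.0033, 0.0059, and 0.0024, edgeR). The R109K call of FANCF was lost in 5 of 6 cases with a replicate left out (0.0105 to 0.022, all but pTRE replicate 1). The KK call of FANCE was also lost in 5 of 6 (0.011 to 0.038, all but KK replicate 2), its R109K call in 3 of 6 (0.014 to 0.019, without pTRE replicate 2, R109K replicate 1, or R109K replicate 3), and its WT call without pTRE replicate 2 (0.016) or WT replicate 1 (0.012).

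FANCI, which is ubiquitinated together with FANCD2, was at 177, 179, and 166 CPM in pTRE and 241, 245, and 237 CPM in WT. It was at 262, 199, and 236 CPM in KK and 261, 208, and 226 CPM in R109K, above pTRE in every induced sample. It rose in WT by 0.47 ± 0.12 in log2 (adjusted p = 0.0072, edgeR), a call lost whichever of the 6 samples was left out (0.0101 to 0.033). In KK and R109K, FANCI had log2 fold changes of 0.42 (0.015) and 0.41 (0.021). FANCD2, its partner, was at -0.02, -0.12, and -0.17 in WT, KK, and R109K. FANCG, a core subunit next to FANCA, was at 0.16, 0.24, and 0.37 (adjusted p = 0.23, 0.081, and 0.014, edgeR), and FANCL, the ubiquitin ligase of the complex, at 0.21, 0.25, and 0.39 (0.17, 0.1, and 0.02). FANCB was at 0.30, 0.21, and 0.21, FANCC at -0.18, -0.22, and -0.06, and FANCM, the translocase that anchors the complex to DNA, at 0.18, -0.27, and -0.35. None of these was past the test in any line. DESeq2 called FANCG and FANCL higher in R109K, and FANCI higher in KK and R109K. With only the 6 samples compared, edgeR called FANCG and FANCI higher in R109K. It called FANCG there with at least 10 counts in every sample as well. The WT value of FANCM was -0.10, with the opposite sign, without WT replicate 2, and that of FANCB was 0.11.

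Neither mismatch repair gene was past the test by edgeR (0 of 2 in each line, and 26.2, 24.4, and 17.3% of all genes in WT, KK, and R109K). At an unadjusted p under 0.05, 0 of 2 passed in WT and 1 of 2 in each of KK and R109K (49, 45.6, and 38.6% of all genes). PMS2, the endonuclease subunit that nicks the strand to be repaired, was at 50.7, 48.9, and 48.1 CPM in pTRE and 32.4, 52.4, and 32.3 CPM in WT. It was at 32.5, 30.0, and 34.3 CPM in KK and 36.9, 27.8, and 35.9 CPM in R109K. Apart from WT replicate 2, all induced samples were below all pTRE samples. The log2 fold changes of PMS2 were -0.34, -0.61, and -0.55 (adjusted p = 0.11, 0.0101, and 0.022, edgeR), and -0.61 (0.0017) in WT without WT replicate 2. DESeq2 called PMS2 lower in KK and R109K. PMS2 has near-identical pseudogenes that can take or give reads, as have CHEK2 and FANCD2, so these counts are uncertain. MSH6, which recognizes single-base mismatches, was at -0.13, -0.14, and -0.04. PARP1, which marks strand breaks with poly(ADP-ribose), was at 396, 426, and 410.3 CPM in pTRE, and its log2 fold changes of 0.09, 0.23, and 0.23 did not pass the test (adjusted p = 0.57, 0.15, and 0.18, edgeR).

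The E2F1 lines were then compared with each other, to ask whether the methylation-deficient forms had another effect on these genes than WT E2F1. None of the 45 genes was past the test in any of the 3 comparisons by edgeR, and 0.71% (R109K against WT), 0.012% (KK against WT), and 0.132% (R109K against KK) of all genes were. At an unadjusted p under 0.05, there were 10, 3, and 6 genes (22.3, 8.51, and 12.4% of all genes). By DESeq2, the counts at an adjusted p under 0.01 were 0, 0, and 1 (3.39, 0.0483, and 1.59% of all genes). By edgeR they were 0 with any replicate left out, when at most 1.74% of all genes were past the test. In R109K against WT, the smallest adjusted p was 0.06 for RAD51C, which was at 88.7, 109.8, and 92.3 CPM in R109K and 77.9, 60.1, and 74.9 CPM in WT, a log2 difference of 0.45 ± 0.12. WT replicate 2 was the lowest of these samples, and without it RAD51C in WT against pTRE went from -0.26 to -0.15. FANCF was 0.42 higher in log2 in R109K than in WT (95% interval 0.15 to 0.69), and CDC25A was at -0.26 (-0.49 to -0.03), both without overlap of the samples. ATM had the largest difference, -0.60, but it was -0.21 without WT replicate 2, and FANCA went from -0.58 to -0.23. The 95% intervals of 43 of 45 genes lay within a 2-fold difference in either direction, the exceptions being ATM and FANCA. Samples did not overlap for 9 higher and 6 lower genes (13.1 and 14% of all genes).

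In KK against WT, the smallest adjusted p was 0.57 (edgeR), the largest difference was again ATM (-0.51, and -0.11 without WT replicate 2), and 44 of 45 intervals lay within a 2-fold difference. A single gene, FANCF, had samples that did not overlap, with a log2 difference of 0.31 (4.81 and 5.16% of all genes were higher and lower without overlap). In R109K against KK, all 45 intervals lay within a 2-fold difference. TP53BP1 had the smallest adjusted p, at 0.09 by edgeR. It was at 78.9, 65.0, and 77.8 CPM in R109K and 108.7, 86.6, and 107 CPM in KK, compared with 89.4, 103, and 96.2 in WT and 93.6, 102, and 97.3 in pTRE. All R109K samples of TP53BP1 were thus below all samples of the other lines, and the log2 difference of -0.45 ± 0.12 was the one that DESeq2 called (adjusted p = 0.00995). TP53BP1 shares 28.8% of its exon bases with other genes. BRCA1 had the largest log2 difference between these lines, 0.45 (95% interval 0.13 to 0.78, adjusted p = 0.19 in edgeR). Its R109K samples were at 203, 154, and 205 CPM and its KK samples at 146, 116, and 147 CPM, without overlap. In this comparison, samples did not overlap for 10 higher and 3 lower genes (9.56 and 11.4% of all genes).

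**Figure D4:**
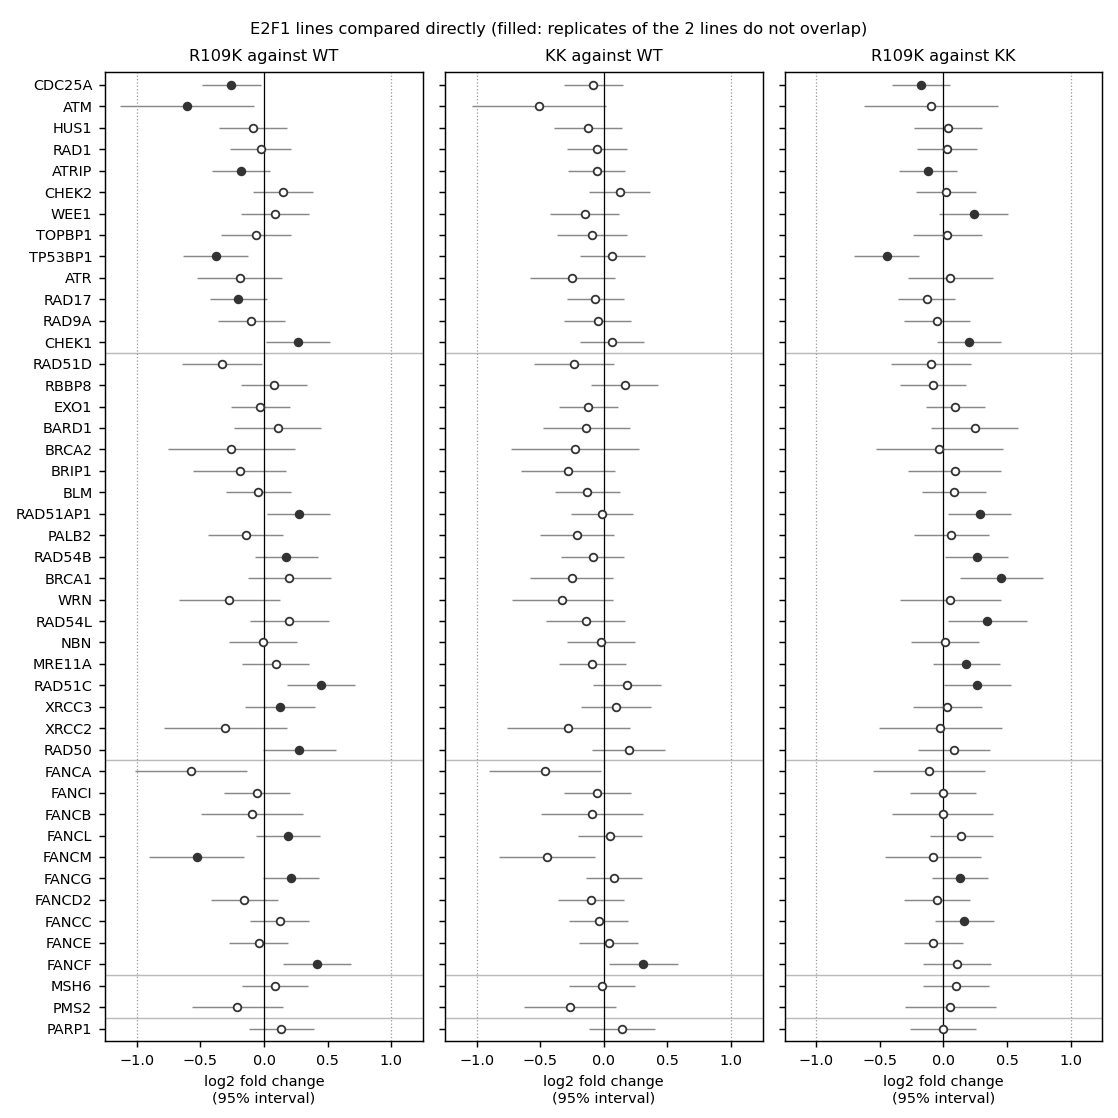
Log2 fold change of the 45 genes between the E2F1 lines, with bars for the 95% interval of the edgeR model, and filled points where the samples of the lines compared do not overlap. Dotted lines mark a 2-fold difference. No gene was past the test, and the intervals of ATM and FANCA in R109K against WT and of ATM in KK against WT reach a dotted line.

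The other genes of the same pathways were counted for comparison, from lists of 61 genes, all of them tested. In WT, 11 rose and 2 fell, in KK 12 and 3, and in R109K 11 and 2, with median log2 fold changes of 0.13, 0.11, and 0.16. The genes that rose were 18, 19.7, and 18% of the lists, compared with 14.8, 13.8, and 10% of all genes, and 11.4, 10.7, and 7.23% of all genes fell. Without WT replicate 2, 13 rose and 2 fell in WT, compared with 14.1 and 10.1% of all genes. Of 16 other checkpoint genes, 2 rose and 1 fell in WT, 4 and 1 in KK, and 3 and 1 in R109K. Among them, RNF168, which ubiquitinates chromatin around breaks, rose by 0.83 ± 0.12 in log2 in WT, and CDC25C, the phosphatase of mitotic entry, by 0.59 ± 0.11. TIMELESS, which protects replication forks, had a log2 fold change of -0.68 ± 0.10. Of 21 other recombination genes, 7 rose and 1 fell in WT, 5 and 2 in KK, and 4 and 1 in R109K. SLX4, a scaffold of nucleases, rose by 1.00 ± 0.19 in WT, and TOP3A, the topoisomerase that works with BLM, by 0.91 ± 0.17, while RMI2, a subunit of the same BLM complex, was at -1.49 ± 0.18 in WT, -1.43 in KK, and -0.83 in R109K. SLX4 was at 0.75 and TOP3A at 0.64 in WT without WT replicate 2, and both were past the test. BLM itself was not past the test. Of 9 other Fanconi genes, 1 rose in WT, 2 in KK, and 3 in R109K, and USP1, which takes the ubiquitin off FANCD2, was at 0.70, 0.72, and 0.85 in WT, KK, and R109K. None of the 6 other mismatch repair genes was past the test in any line by edgeR. At an unadjusted p under 0.05, 1 of them passed in each line, and 49, 45.6, and 38.6% of all genes did in WT, KK, and R109K. Of 9 end-joining genes, 1 rose in each line, DCLRE1C (Artemis, which trims broken ends), at 1.41, 1.29, and 1.14. Without WT replicate 2, 3 of the other checkpoint genes, 2 of the other Fanconi genes, and 2 of the end-joining genes rose in WT, and DCLRE1C was at 1.18.

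Many repair genes are known to follow the cell cycle, and in bulk RNA a larger share of cells in a phase cannot be told apart from more RNA per cell. Of all genes, 14.8, 13.8, and 10% rose and 11.4, 10.7, and 7.23% fell in WT, KK, and R109K. Of 12 S phase markers, 1 rose and 3 fell in WT, 2 rose and 4 fell in KK, and 3 rose and 2 fell in R109K. RRM2 rose by 2.37, 2.39, and 2.28 in log2, and MCM5 was at -0.91, -1.02, and -0.92 in the same order. Of 12 mitosis markers, 3 rose in WT, 4 in KK, and 8 in R109K, and none fell, with median log2 fold changes of 0.32, 0.41, and 0.51. In WT without replicate 2, 3 S phase markers rose and 3 fell, and 5 mitosis markers rose, with a mitosis median of 0.43. Without that replicate, 14.1% of all genes rose and 10.1% fell. No marker of either list was past the test between E2F1 lines by edgeR. At an unadjusted p under 0.05, there were 5 mitosis markers in R109K against WT, 0 in KK against WT, and 3 in R109K against KK. S phase markers numbered 0, 1, and 0 in these comparisons, in which 22.3, 8.51, and 12.4% of all genes passed. The part of cell cycle position in the values of the checkpoint and repair genes was not tested.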

How the data were processed

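Poly(A) RNA of the 12 samples was made into directional libraries and sequenced on an Illumina NextSeq. Per the submitters' processing notes and the study's methods, reads were trimmed with Trim Galore 0.4.3 and aligned to hg19 with STAR 2.5.1, and the authors deposited raw counts of reads for 25369 gene symbols in each sample, followed by 5 summary lines of uncounted reads (34.3 to 68.8% of reads), which were kept out of library sizes and tests. The annotation version and the strand setting of the counting are not given in the sources used here, so reads of overlapping genes may not be separated.

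R 4.3.3 and edgeR 4.0.16 were used. The filterByExpr filter left 16625 genes, all 45 members among them, and TMM set the library sizes. A separate mean per line was estimated in a quasi-likelihood fit over the 12 samples. P-values from glmQLFTest were adjusted over all genes by the Benjamini-Hochberg method, with a threshold of 0.01 and, for a regulated gene, a change over 2-fold, as in the study's methods. Standard errors and 95% intervals come from the same model. The alternatives were DESeq2 1.42.0 (the study used version 1.16.1), RLE factors, other filters, only the 6 samples compared, the replicate number as a block, an adjusted p under 0.05, glmTreat against 2-fold, and each replicate left out in turn. Transcript lengths and overlaps came from GENCODE on GRCh37, and promoters from RefSeq on GRCh38.p14. No coordinates were converted between these builds.

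The members and gene lists were chosen with earlier results of these data known. Values in every sample are given for up to 5 members per subgroup with the largest changes among those past the test, and for every member that fell or differed between E2F1 lines. Other members are given by fold change, and members of interest outside this rule (ATM, XRCC2, PMS2, CHEK1, PARP1, RAD51C, TP53BP1, and BRCA1) were given sample values after their values were seen, as were the markers named. From each list of other pathway genes, up to 3 with the largest change in WT among those past the test there are named. Counting these lists without WT replicate 2 was chosen after seeing the data. Some genes of these pathways are not reported here.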

Additional observations from a re-analysis of the deposited data

How the results depend on the processing

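The 26 calls of a gene in a line against pTRE were recomputed under 12 alternatives each, which gave 312 values. Of these, 252 stayed past the threshold, 60 did not, and 0 changed direction. With a replicate left out, 51 of 156 calls were lost, and under the other settings 9 of 156. DESeq2, RLE factors, and a minimum of 10 counts in every sample kept all 26 calls. The number of genes past the test moved by more than 1.5 times in some settings. In KK it was 7 (24.4% of all genes), and 11 by DESeq2 (25.6%) and 16 at an adjusted p under 0.05 (36.7%). With a replicate left out, it was 3 to 10, and 17.9 to 21.9% of all genes were past the test. It was 3 without KK replicate 1, 4 without pTRE replicate 1, and 10 without KK replicate 2. In R109K it was 9 (17.3% of all genes), and 17 by DESeq2 (20.5%). It was 14 with only the 6 samples compared (25.9%) and 20 at an adjusted p under 0.05 (28.1%). With a replicate left out, it was 3 to 7, and 10.8 to 12.7% of all genes were past the test. It was 3 without R109K replicate 1, 4 without pTRE replicate 2, pTRE replicate 3, or R109K replicate 3, and 6 without pTRE replicate 1. In WT it was 10 (26.2% of all genes), and 7 to 11 with a replicate left out (19 to 25.3% of all genes). More than 2-fold, WT had 1 gene, and 2 with RLE factors (FANCA and CDC25A), 2 with a minimum of 10 counts, 2 with only the 6 samples compared, 0 by glmTreat, and 1 to 3 with a replicate left out (3 without WT replicate 3, 1 without pTRE replicate 1, and 2 otherwise). KK had 0, and 0 to 1 with a replicate left out (1 without KK replicate 2). In R109K against KK, DESeq2 called 1 gene (1.59% of all genes). The cause of these differences was not tested.

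Replicate numbers are shared by the labels, but same-numbered samples did not deviate together. Over 18 pairs, the correlation of their deviations ran from -0.29 to 0.47 with a mean of 0.04, so the numbers were not treated as pairs. A fit with a replicate block had 12, 7, and 7 genes past the test in WT, KK, and R109K (25.8, 24.4, and 17.3% of all genes). In that fit, 3 of the 26 calls were lost, namely HUS1 in WT and RAD51D and FANCA in R109K. RAD1 and BARD1 (higher) and CHEK1 (lower) were past the test in WT in the same fit. FANCF and FANCB were the least counted of these genes, and WT replicate 2 has the fewest reads on genes. The standard error of FANCF was nevertheless 0.13 in WT, near the median of 0.125 over the 45 genes.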
